A study of Mus musculus with 7 samples.

Results

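The genes described here are 10 identity genes of the excitatory neurons in cortical layers 5 and 6: Fezf2, Bcl11b, Tbr1, Foxp2, Ldb2, Tle4, Etv1, Syt6, Hs3st4 and Pcp4. They were taken by symbol from a table of 56941 rows, and each of the 10 symbols was found on 1 row. The table came from RNA sequencing of mouse cerebral cortex at postnatal day 7, in which 4 wild-type (WT) samples were compared with 3 samples labelled P213L, after a variant of the X-linked gene Hnrnph2, whose protein binds RNA and acts in splicing. The labels give the genotype, the age and the tissue, and no strain, zygosity or treatment beyond fresh tissue. Whether each sample was a separate animal is not stated, and p-values therefore measure only the spread among these samples, which may be technical. The series is titled for myelination and oligodendrocyte differentiation, and the comparison made here asks whether the neuronal identity genes of the deep layers differed between the same cortices.

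Deep-layer excitatory neurons send axons out of the cortex. Layer 5 neurons reach the brainstem and spinal cord or other cortical areas, and layer 6 neurons mostly reach the thalamus. Their identity is held by transcription factors that restrain one another: Fezf2 drives the layer 5 programme and acts through Bcl11b, while Tbr1 holds the layer 6 programme and represses Fezf2. These neurons are born early in cortical development and have already taken up their fates by the age sampled, so the genes mark established neurons and not the choice of fate.

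Letters of the start sites are shown for Fezf2 and Bcl11b, which lay low together in WT replicate 3, and for Pcp4, which lay high in it. Syt6 lay lower still in that library and is not shown, and 55.0% of all rows lay below the 6 other samples there. Each line gives the 250 bases before the RefSeq start (GRCm38.p6, which is mm10), 5′ to 3′ on the strand of the gene, with CG dinucleotides in capitals. The windows are chr14:12345866-12346115 (minus strand) for Fezf2, chr12:108003415-108003664 (minus strand) for Bcl11b and chr16:96467356-96467605 (plus strand) for Pcp4.
Fezf2: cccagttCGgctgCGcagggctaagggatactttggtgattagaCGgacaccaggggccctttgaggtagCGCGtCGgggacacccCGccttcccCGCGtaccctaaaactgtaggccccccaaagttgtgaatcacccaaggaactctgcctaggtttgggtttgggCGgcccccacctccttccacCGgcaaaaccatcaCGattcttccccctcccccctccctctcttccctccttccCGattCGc
Bcl11b: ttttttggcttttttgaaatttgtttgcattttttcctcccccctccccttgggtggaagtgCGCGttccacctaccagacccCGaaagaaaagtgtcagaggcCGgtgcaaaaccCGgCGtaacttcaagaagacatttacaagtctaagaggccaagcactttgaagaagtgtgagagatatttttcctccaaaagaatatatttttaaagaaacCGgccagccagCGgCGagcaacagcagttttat
Pcp4: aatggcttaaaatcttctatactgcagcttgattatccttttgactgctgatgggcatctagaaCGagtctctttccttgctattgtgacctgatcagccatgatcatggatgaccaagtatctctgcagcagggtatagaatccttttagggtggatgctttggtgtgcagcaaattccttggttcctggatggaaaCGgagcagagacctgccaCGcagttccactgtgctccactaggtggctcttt
The Fezf2 window held 14 CG dinucleotides with 61.2% G and C, the Bcl11b window 9 with 44.8%, and the Pcp4 window 3 with 46.8%. CG reads the same on both strands, and 92.1% of the 32851 RefSeq windows of the same length held at least 1. Fewer CG dinucleotides were found in 70.6% of all windows than in that of Fezf2, in 59.7% than in that of Bcl11b and in 29.0% than in that of Pcp4. Windows were matched for 8 of the 10 genes, all but Foxp2 and Ldb2. The RefSeq starts differ from the GENCODE vM21 gene spans given below for 2 of the genes shown. By those spans the Fezf2 window lies within the gene and the Bcl11b window partly so, while the Pcp4 window ends just before its gene. These counts describe the letters of the windows only, and a link to the values of WT replicate 3 was not tested.

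Values are transcripts per 1000000 (TPM), read counts divided by gene length and scaled to one total per sample. All 10 genes averaged at least 1 TPM and so were among the 17582 rows tested. One library, WT replicate 3, was unlike the others, correlating with them at 0.943 to 0.949 across the tested rows where they correlated with each other at 0.981 to 0.992. Estimated depth was 57.2 M counted units (M, 1000000) in that library, against 66.4 to 79.4 M in the other 6. In WT replicate 2 the choroid plexus gene Ttr reached 1216 TPM, and elsewhere 1.36 TPM at most. Hnrnph2 itself measured 87.0 ± 5.66 TPM in WT against 82.0 ± 5.39 TPM in P213L (SD, n = 4 and 3), which does not check the labels, since the variant changes the protein. The 10 general excitatory neuron genes fixed as a check of the tissue label all passed the filter. This cannot tell cortex from other tissue with excitatory neurons. The summed level of these 10 genes was 1216 TPM in WT replicate 3, 2135 to 2192 TPM in the other WT samples and 1795 to 2026 TPM in P213L. Their sum was thus lower in all 3 P213L samples than in those 3 WT samples.

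The 10 genes covered a wide range of levels per length. Over the 7 samples Hs3st4 was the most abundant at 115.7 ± 6.87 TPM, followed by Ldb2 at 86.7 ± 7.28, Tbr1 at 84.7 ± 5.39, Bcl11b at 75.4 ± 14.3 and Fezf2 at 69.4 ± 11.8 TPM (SD, n = 7). Tle4 (54.9 ± 4.09 TPM), Pcp4 (47.1 ± 18.9), Syt6 (29.4 ± 6.27), Etv1 (20.9 ± 3.61) and Foxp2 (6.74 ± 0.577) lay below them. Only Hs3st4 at the top and Foxp2 at the bottom had ranges that did not overlap those of the next gene. Without WT replicate 3 the ranges of Fezf2 and Tle4 and those of Syt6 and Etv1 also separated. The order depends on the lengths used: the deposited values gave whole or half-integer units (within 0.05) for all 70 member values when multiplied by the exon-union lengths of GENCODE vM21, and these were 16346 bases for Foxp2 and 13296 for Etv1, where the longest coding transcripts have 6760 and 6576 bases. The units behind a member value ran from 561 to 14564.

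None of the 10 genes differed between P213L and WT cortex beyond the spread between samples. The intervals from all 7 samples say how large a difference the data still allow for each. Of the 10, 6 had lower and 4 higher fitted values in P213L, with a median log2 fold change of -0.02, against a median of 0.07 and 36.6% lower over all 17582 rows tested. With limma, 0 of the 10 passed an adjusted p of 0.05 and 0 had an unadjusted p under 0.05, where 0% and 3.74% of all rows did. The groups overlapped for all 10 genes, while 8.69% of all rows had groups that did not overlap. In bulk tissue, fewer deep-layer neurons and less of a transcript per neuron cannot be told apart.

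**Figure D1:**
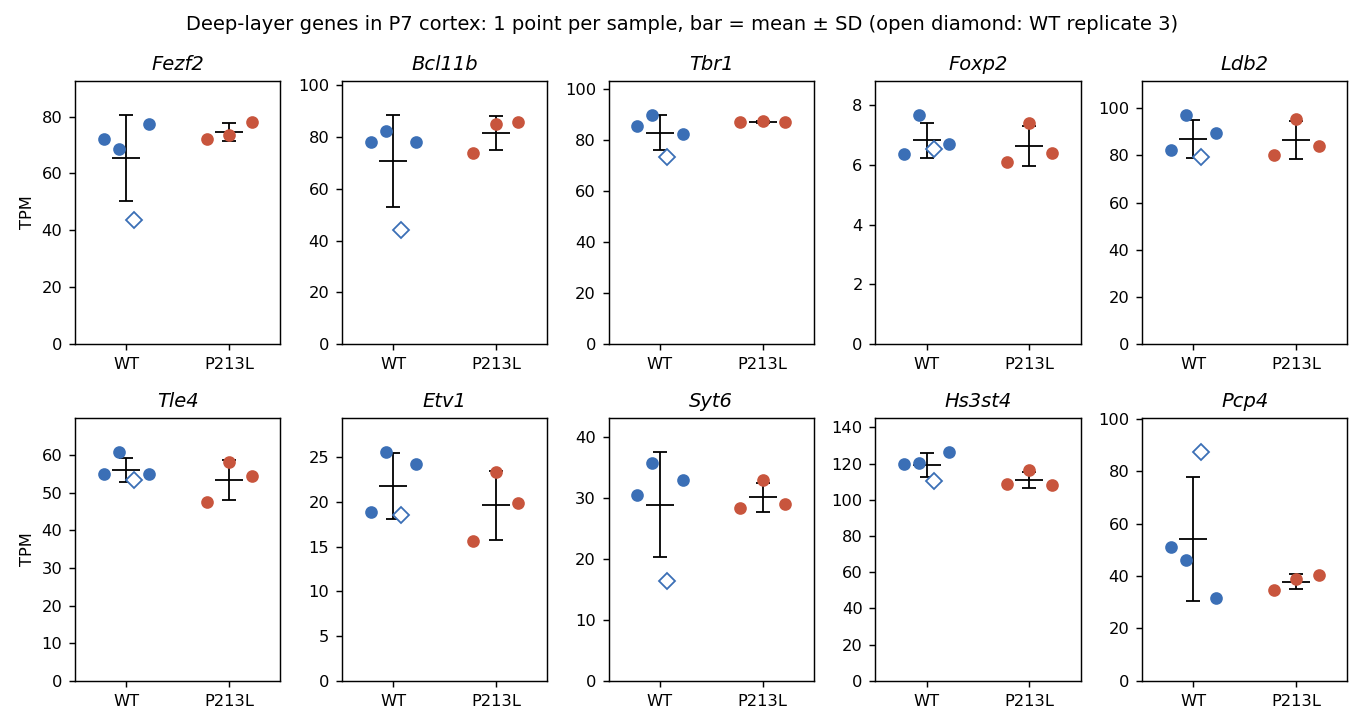
TPM of the 10 deep-layer genes in each sample (vertical axes start at 0 and differ between genes), with WT in blue, P213L in red, the mean and SD as black bars, and WT replicate 3 as an open diamond. The P213L and WT points overlap for every gene, and the open diamond is the lowest point for Fezf2, Bcl11b, Tbr1, Ldb2 and Syt6 and the highest for Pcp4.

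Fezf2 (mm10, chromosome 14, 12342094 to 12348189, minus strand), the zinc finger factor that specifies layer 5 neurons projecting below the cortex, measured 72.1, 68.6, 43.6 and 77.4 TPM in WT replicates 1 to 4 and 72.3, 73.5 and 78.1 TPM in P213L replicates 1 to 3. The P213L values lay inside the range of the WT samples but for 1 value slightly above it, and WT replicate 3 was far below all others. The log2 fold change was 0.22 ± 0.20 (SE; limma 95% interval -0.23 to 0.68, adjusted p = 0.827; exact permutation p = 0.371). Without WT replicate 3 it was 0.04 ± 0.07, with an interval of -0.12 to 0.19.

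Bcl11b (chromosome 12, 107910403 to 108003602, minus strand), also known as Ctip2, is the factor downstream of Fezf2 that corticospinal axons need to grow, and it is strongly expressed in striatal projection neurons as well. It measured 78.1, 82.3, 44.3 and 78.1 TPM in WT, against 73.9, 84.9 and 86.0 TPM in P213L. WT replicate 3 was again alone below the rest, and the other 6 samples were mixed. The log2 fold change of 0.24 ± 0.22 (SE; limma interval -0.27 to 0.75, adjusted p = 0.827) became 0.04 ± 0.07 without that sample, with an interval of -0.13 to 0.21. For both genes most of the fitted difference from 7 samples rested on that 1 sample.

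Ldb2 and Etv1 are the other regulators of layer 5 in the set. Ldb2 (chromosome 5, 44472132 to 44799680, minus strand), a cofactor that binds LIM-domain proteins, measured 82.1, 96.9, 79.3 and 89.4 TPM in WT against 80.0, 95.6 and 83.9 TPM in P213L, with a log2 fold change of -0.01 ± 0.12 (SE). The sign of so small a value differed between settings. Etv1 (chromosome 12, 38779380 to 38870484, plus strand), an Ets-family factor of layer 5 neurons, measured 18.8, 25.6, 18.5 and 24.3 TPM in WT against 15.6, 23.4 and 19.8 TPM in P213L. Its samples were spread in both groups, and the log2 fold change was -0.15 ± 0.18 (SE; limma interval -0.57 to 0.27, adjusted p = 0.830). Without WT replicate 3 it was -0.22 ± 0.17, with the interval that reached lowest of the 10 genes (-0.61 to 0.16). It was -0.0021 without P213L replicate 1 and -0.28 without P213L replicate 2.

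Pcp4 (chromosome 16, 96467606 to 96525793, plus strand), a small calmodulin-binding peptide of layer 5 neurons that other brain regions also express, had the largest fitted difference. It measured 51.2, 46.1, 87.3 and 31.5 TPM in WT, against 34.6, 38.8 and 40.3 TPM in P213L. WT replicate 3 was the highest and WT replicate 4 the lowest of all 7, so the P213L samples lay within the WT range. The log2 fold change of -0.41 ± 0.30 (SE; limma interval -1.11 to 0.28, adjusted p = 0.827; exact permutation p = 0.343) was -0.15 ± 0.17 without WT replicate 3, with an interval of -0.55 to 0.25. Without WT replicate 4 it was -0.64 ± 0.25 (SE; limma adjusted p = 0.771), so each extreme WT sample moved it, in opposite directions.

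Tbr1 was close to level across the samples other than WT replicate 3. Tbr1 (chromosome 2, 61802930 to 61814114, plus strand), the T-box factor of corticothalamic neurons, measured 85.6, 89.7, 73.5 and 82.6 TPM in WT against 86.9, 87.7 and 87.0 TPM in P213L. Its coefficient of variation was 6.37% over the 7 samples and 2.72% without WT replicate 3, the lowest of the 10 genes in the latter set. The log2 fold change was 0.08 ± 0.10 (SE; limma interval -0.16 to 0.31, adjusted p = 0.836), and 0.02 ± 0.05 without WT replicate 3 with an interval of -0.11 to 0.15. With median-of-ratios scaling it was -0.0070, so its sign depended on the scaling.

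Foxp2 and Tle4, the other layer 6 regulators, lay close together across groups. Foxp2 (chromosome 6, 14901349 to 15441977, plus strand), a forkhead factor of layer 6 and of the striatum, measured 6.37, 7.66, 6.54 and 6.71 TPM in WT against 6.09, 7.40 and 6.41 TPM in P213L, with a log2 fold change of -0.04 ± 0.13 (SE). Tle4 (chromosome 19, 14448150 to 14598051, minus strand), a Groucho-family corepressor of corticothalamic neurons, measured 55.1, 60.8, 53.5 and 54.9 TPM in WT against 47.6, 58.1 and 54.5 TPM in P213L, with a log2 fold change of -0.07 ± 0.11 (SE). WT replicate 3 was not apart for either gene. Neither difference passed (limma adjusted p = 0.926 for Foxp2 and 0.849 for Tle4).

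Syt6 and Hs3st4 are markers of layer 6 neurons and not regulators. Syt6 (chromosome 3, 103575231 to 103645569, plus strand), a synaptotagmin of the membrane-trafficking family, measured 30.4, 35.7, 16.4 and 32.9 TPM in WT against 28.4, 32.8 and 29.0 TPM in P213L. WT replicate 3 was far below the other 6, and the direction of the comparison turned on it: the log2 fold change was 0.11 ± 0.26 with it and -0.13 ± 0.09 without it (SE; limma adjusted p = 0.891 and 0.646).

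Hs3st4 (chromosome 7, 123982869 to 124398989, plus strand), an enzyme that adds sulfate to heparan sulfate chains on the cell surface, measured 119.5, 120.4, 110.5 and 126.4 TPM in WT against 108.7, 116.2 and 108.2 TPM in P213L. Of the WT samples only replicate 3 lay inside the P213L range. The log2 fold change was -0.10 ± 0.09 (SE; limma interval -0.32 to 0.11, adjusted p = 0.827; exact permutation p = 0.143). Without WT replicate 3 the P213L range lay wholly below that of WT, as it did for 6.89% of all rows, and the log2 fold change was -0.14 ± 0.06 with an unadjusted p of 0.0434 and an adjusted p of 0.552 in limma. An unadjusted p under 0.05 was then found for 8.69% of all rows, so 1 of 10 genes is near the background. With sample weights, which gave WT replicate 3 a weight of 0.0431 and WT replicate 4 and P213L replicate 3 weights of 5.24 and 6.90, Hs3st4 passed in limma (-0.19 ± 0.04, SE, adjusted p = 0.0152), in a fit that called 3981 rows.

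**Figure D2:**
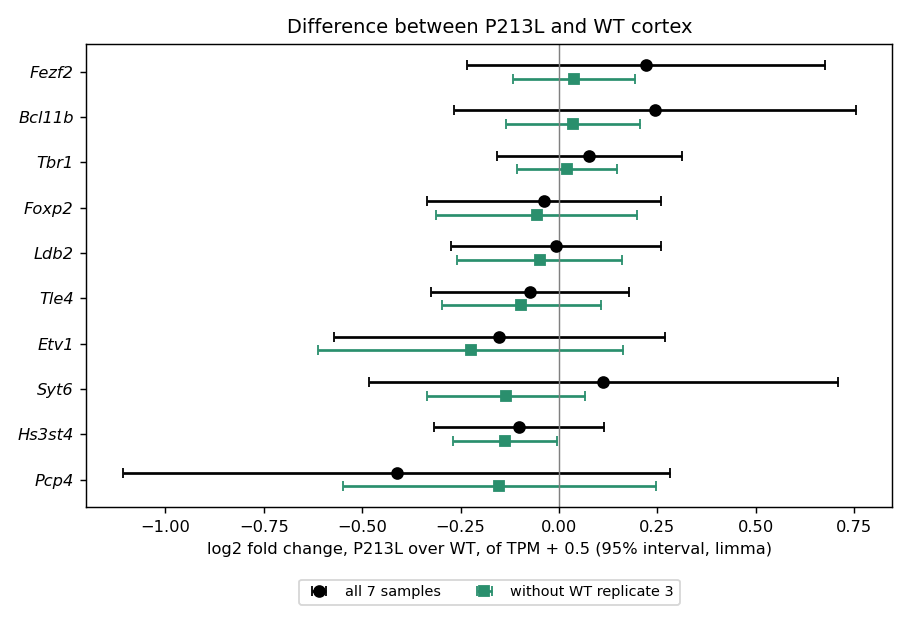
Log2 fold changes of the 10 genes (P213L over WT on log2 of TPM + 0.5, horizontal axis) with 95% limma intervals, from all 7 samples (black circles) and without WT replicate 3 (green squares). All intervals from 7 samples include 0, and the intervals of Fezf2, Bcl11b, Syt6 and Pcp4 narrow most when that sample is left out.

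Leaving out WT replicate 3 narrowed the intervals of all 10 genes. That sample was set apart by its own values, so the narrower intervals may understate what the data allow. In that fit the intervals lay between -0.61 and 0.25, with 7 genes lower and 3 higher. The median was -0.08, where 50.4% of all rows were lower and their median was -0.0016. For Fezf2, Bcl11b and Tbr1 no bound of that fit was beyond 0.21 in either direction.

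WT replicate 3 differed from the other WT samples by amounts that varied from gene to gene, and not by a common factor alone. Relative to the mean of the other 3 WT samples on the log2 scale, Syt6 was at -0.99, Bcl11b at -0.84 and Fezf2 at -0.73, while Foxp2 was at -0.07, Tle4 at -0.09 and Pcp4 at 1.04. Of the 10 genes, 5 lay below and 1 above all 6 other samples, where 55.0% and 21.6% of all rows did. The median row was at -0.30, and 99.0% of the rows had a lower deviation than Pcp4. The deviation varied with transcript length: its median was 0.28 for the 3433 coding genes with the shortest transcripts (up to 2035 bases) and -0.78 for the 3431 with the longest (4740 bases or more). Pcp4, at 641 bases, is the shortest of the 10 and Bcl11b, at 8111, the longest, but Fezf2 (2429 bases) lay well below the median of genes of 2036 to 3201 bases (-0.15), and Foxp2 (6760 bases) well above that of the longest class. Whether length or RNA quality has a part in these values was not tested.

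**Figure D3:**
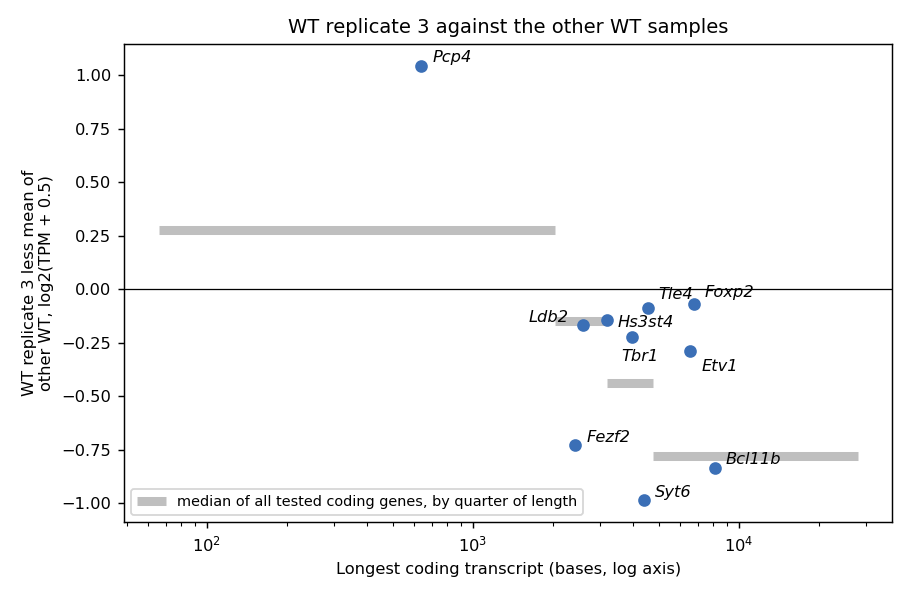
Difference of WT replicate 3 from the mean of the other 3 WT samples (vertical axis, log2 of TPM + 0.5) against the length of the longest coding transcript (horizontal log axis) for the 10 genes. Grey bars are the medians of all tested coding genes in 4 classes of length, which run from 0.28 to -0.78, and Pcp4 at 1.04 and Syt6 at -0.99 are the extremes of the 10.

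The members often shared their highest and lowest samples. P213L replicate 1 held the lowest value of its group for 9 of the 10 genes, all but Hs3st4. WT replicate 2 held the highest WT value for 7 genes and P213L replicate 2 the highest P213L value for 7, and for 6 of them (Tbr1, Foxp2, Ldb2, Tle4, Etv1 and Syt6) both were so. The matching shares over all rows were not computed, so these counts cannot be called particular to the 10 genes. P213L replicate 1 was also lowest of its group in the means of the general excitatory (6.87), upper-layer (5.54) and other layer 5 (4.89) lists. It was highest of its group for the other layer 6 list (5.7426). Etv1 and Pcp4 varied most in the 6 samples other than WT replicate 3, with coefficients of variation of 17.8 and 18.0%. Tbr1, Fezf2 (4.86%) and Bcl11b (5.78%) varied least in them.

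Other genes of the same layers did not separate the groups either. Of 11 further layer 5 genes, 4 were lower and 7 higher in P213L (median log2 fold change 0.09), and of 9 further layer 6 genes 2 were lower and 7 higher (median 0.11). Over all rows, 63.4% were higher. In limma 0 of the 11 and 0 of the 9 had an unadjusted p under 0.05, and the groups overlapped for each of these genes. Without WT replicate 3 the medians were -0.02 and -0.0075. Ntsr1, the neurotensin receptor that marks corticothalamic neurons, measured 44.2 ± 9.31 TPM in WT against 54.1 ± 4.18 TPM in P213L (SD, n = 4 and 3), with a log2 fold change of 0.31 ± 0.19 and of 0.15 ± 0.07 without WT replicate 3 (SE). Grik3, a kainate receptor subunit, measured 25.9 TPM in WT replicate 3 and 74.5 to 84.7 TPM in the other 6 samples. Crim1, a marker of corticospinal neurons, likewise measured 24.7 TPM there and 45.7 to 53.1 TPM elsewhere.

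Of 10 regulators of projection neuron identity, 9 had higher and 1 lower fitted values in P213L (median 0.15), where 63.4% of all rows were higher. Without WT replicate 3, which was the lowest of the 7 samples for all 10, 5 were higher and 5 lower (median 0.0033). In 2 of them the P213L values all lay above the WT values, as they did for 5.94% of all rows. Bhlhe22, a helix-loop-helix factor of corticospinal and other projection neurons, measured 193.7, 175.4, 149.9 and 188.9 TPM in WT, against 201.1, 223.6 and 216.4 TPM in P213L. Its log2 fold change was 0.28 ± 0.12 (SE; limma unadjusted p = 0.0458, adjusted p = 0.827) and 0.20 ± 0.07 without WT replicate 3. Sox11, a factor of young neurons, measured 27.0 to 38.8 TPM in WT against 39.2 to 50.5 TPM in P213L, with a log2 fold change of 0.36 ± 0.16 (SE; limma adjusted p = 0.827). Neither passed adjustment.

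The deep-layer genes were also set against the upper-layer genes of the same sample, which cancels the scaling of the library. The mean log2 value of the 10 genes less that of 13 upper-layer genes was -0.09, 0.05, 0.59 and -0.03 in WT and -0.11, 0.0018 and -0.05 in P213L. Apart from WT replicate 3 the samples lay in a narrow band around 0, and in that sample the upper-layer mean was 4.77 against 5.54 to 5.66 elsewhere. The difference between groups was -0.19, and -0.03 without that sample.

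**Figure D4:**
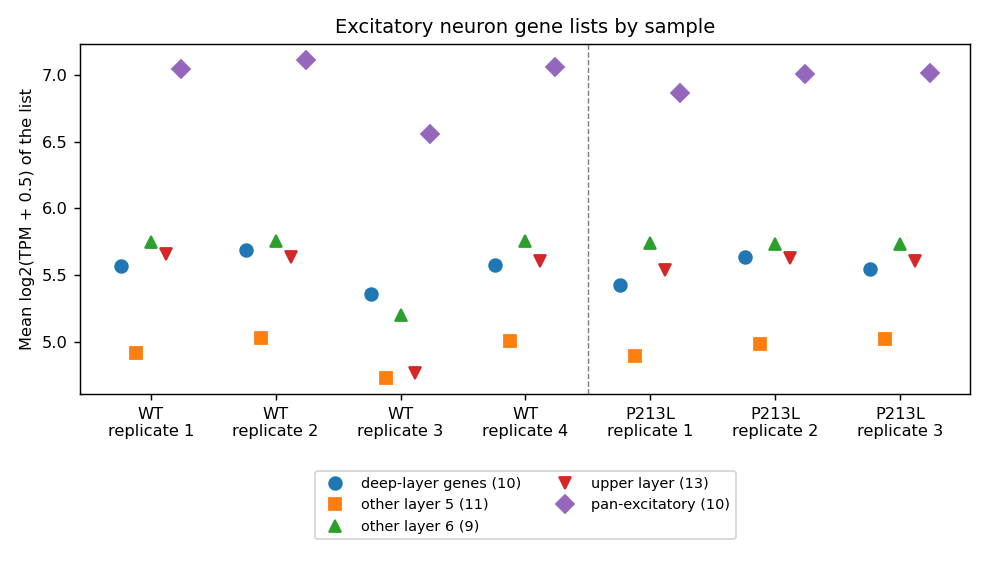
Mean log2 of TPM + 0.5 (vertical axis) of the 10 deep-layer genes and of 4 other excitatory neuron lists in each of the 7 samples. WT replicate 3 is lowest for every list and lowest by most for the upper-layer list (4.77). The P213L samples overlap the other WT samples for the deep-layer, other layer 5 and upper-layer lists, and lie below them for the general excitatory list (6.87 to 7.02 against 7.04 to 7.11) and the other layer 6 list (5.7305 to 5.7426 against 5.7441 to 5.7557).

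Relative to the mean of the 10 general excitatory neuron genes of each sample, a scale added after the values were seen, the log2 value of Bcl11b was -0.74, -0.74, -1.07 and -0.76 in WT and -0.65, -0.59 and -0.58 in P213L. All P213L values were above all WT values, which was so for 1 of the 10 genes and for 8.85% of all rows. Without WT replicate 3 it was so for Tbr1 as well, at -0.61, -0.62 and -0.68 in WT and -0.42, -0.54 and -0.57 in P213L, and for 16.7% of all rows. The general excitatory list itself had a median log2 fold change of -0.16 without WT replicate 3, with 7 of 10 genes lower, so the reference moved as well.

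Tissue beside the cortex can add to some members, since Bcl11b, Foxp2 and Pcp4 are also expressed in the striatum. All 14 striatal markers were above 0 in every sample and passed the filter, with a summed level of 775.0 to 965.7 TPM in WT against 783.5 to 823.0 TPM in P213L and a median log2 fold change of 0.04, or -0.04 without WT replicate 3. Of 7 thalamic markers 6 passed the filter, and all 6 had higher fitted values in P213L, as 63.4% of all rows did (median 0.35, and 0.35 without WT replicate 3), with a summed level of 66.0 to 83.2 TPM in WT against 86.7 to 96.0 TPM in P213L. The P213L values of 3 of them lay above all WT values, against 5.94% of all rows, and Zic1, which had the smallest p, measured 13.8 ± 1.96 TPM in WT against 19.7 ± 2.47 TPM in P213L (SD, n = 4 and 3; limma adjusted p = 0.827). Hippocampal markers, of which 3 of 4 passed the filter, were all 3 higher, where 63.4% of all rows were. Their summed level was 16.7 to 33.0 TPM in WT against 27.7 to 48.7 TPM in P213L. No marker of these 3 lists was at 0 in any sample. Their part in the values of the deep-layer genes was not tested.

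Of 12 inhibitory neuron markers, 8 had higher and 4 lower fitted values in P213L, where 63.4% of all rows were higher. The median of these markers was 0.25, and 0.12 without WT replicate 3. Their summed level was 2441 TPM in WT replicate 3, 1597 to 1782 TPM in the other WT samples and 1661 to 1764 TPM in P213L. Their mean log2 value was nonetheless lowest in WT replicate 3, at 5.31 against 5.39 to 5.63 in the other 6 samples. Of the 12 markers, 7 lay below and 3 above all 6 other samples there, where 55.0% and 21.6% of all rows did. The glial lists are given for comparison by their medians, which were 0.05 for astrocytes, -0.12 for oligodendrocytes and -0.09 for microglia, and -0.13, -0.21 and -0.15 without WT replicate 3. The endothelial median was 0.02 and the choroid plexus median -0.54, or -0.05 and -0.78 without WT replicate 3. The mean log2 value of the choroid plexus markers was 4.51 in WT replicate 2 and 0.32 to 0.87 in the other 6 samples.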

How the data were processed

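Stranded poly(A) libraries were made from TRIzol RNA of fresh cortex, per the labels' protocols. The submitters' processing notes name HISAT2, HTSeq and mm10, with versions, annotation and gene lengths not stated there. The deposited TPM values, per the file headers, sum to 1000000 per column. TPM keeps no read total, so depth was estimated in each sample from the most frequent low value of TPM times exon-union length (GENCODE vM21), and no count test was run.

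Samples were grouped by title. Rows with a mean of 1 TPM or more were tested as log2(TPM + 0.5) with limma 3.58.1 in R 4.3.3 (mean-variance trend, two-sided, Benjamini-Hochberg over 17582 rows, threshold 0.05). This scale understates the change of low genes. Exact permutation p-values, unadjusted, are for the absolute difference in mean TPM over all 35 splits, the smallest possible being 0.0286. Members and lists were chosen with earlier results of these data known. Named genes are the members, Hnrnph2 and up to 3 per other list with the smallest p. Alternatives were other scalings, pseudocounts, filters and variance models, the replicate number as a block and each sample left out. Tested on data simulated for this comparison over 17582 rows with 200 changed, the fit recovered 6% of changes of 0.5 (log2) and 50.6% of changes of 1. Promoter windows are from RefSeq. Tables and figures used Python 3.11.15, pandas 2.3.3 and matplotlib 3.10.9.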

Additional observations from a re-analysis of the deposited data

Results flagged for a closer look

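In the group of 4 WT samples, 29 measures (the 10 genes, 15 list means and 4 differences between lists) were searched for a sample far from the other 3. Chance flags about 1 in 20 such groups, and 7 were found, 6 of them in WT replicate 3. The 29 measures share libraries and genes and are not independent, so the number found cannot be set against that rate. Bcl11b stood at 5.49 on the log2(TPM + 0.5) scale in that sample. The list means there were 5.20 for the other layer 6 genes, 5.20 for the regulators of projection identity, 4.77 for the upper-layer genes, 6.56 for the general excitatory genes and 5.01 for the endothelial markers, all below the other 3 WT samples. The choroid plexus mean was 4.51 in WT replicate 2, above the others. The P213L group has 3 samples and was not searched.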

How the results depend on the processing

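Of 19 alternatives, 14 gave the members fold changes of their own, and in these 128 of 140 values kept their sign. Another filter, no trend and robust variances leave a fold change as it is by construction. Fezf2, Bcl11b, Etv1 and Hs3st4 kept their sign in all 14. No member passed adjustment in limma except Hs3st4 with sample weights. Tbr1 came to -0.0070 with median-of-ratios scaling. Syt6 came to -0.17 and Pcp4 to 0.17 with sample weights, and Syt6 to -0.14 with median-of-ratios scaling and WT replicate 3 left out together, an alternative chosen after seeing the data. Leaving out 1 sample each, Ldb2 ran from -0.080 to 0.047, Foxp2 from -0.11 to 0.017, Tle4 from -0.14 to 0.0063, Syt6 from -0.13 to 0.23, Etv1 from -0.28 to -0.0021 and Pcp4 from -0.64 (without WT replicate 4) to -0.15 (without WT replicate 3). The median of the 10 genes ran from -0.10 (median-of-ratios scaling, and without P213L replicate 2) to 0.03 (without P213L replicate 1 or WT replicate 2), and the number lower in P213L from 3 (without P213L replicate 1) to 7 (without WT replicate 3, and with median-of-ratios scaling). The count of rows past the threshold was 0 (657 at an unadjusted p under 0.05 in limma) and 3981 with sample weights (6969). The unadjusted count was 1836 with no filter, 361 with a mean of at least 5 TPM, and 1523 with median-of-ratios scaling and WT replicate 3 left out. Leaving out 1 sample each it ran from 266 (P213L replicate 1) to 1574 (WT replicate 1), and it was also moved by P213L replicates 2 (390) and 3 (314) and by WT replicate 3 (1528). The count thus rose in some fits with fewer samples and fell in others, and the cause was not tested.

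The replicate numbers were not taken as pairs, and the correlations do not settle whether they are. Deviations of same-numbered samples from their group means correlated at 0.128, 0.170 and -0.101. WT replicates 1 and 2 correlated best with their own number, replicate 1 only slightly (0.121 with P213L replicate 3). WT replicate 3 did not correlate best with its own number. With the replicate block, Ldb2 came to 0.0082, Pcp4 to -0.64 and the unadjusted count to 500. WT replicate 4 has no partner, so that fit also drops it, and the fold changes of all 10 genes equal those without WT replicate 4, where the count was 495. The fewest units behind a member value were 561.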
